A study of Mus musculus with 106 samples.

Results

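Mitochondrial ribosomal protein genes were taken as the protein-coding genes whose symbol begins with Mrpl or Mrps followed by digits, which gave 78 of 21938 protein-coding genes in the annotation. The rule used names alone and no measured value. Of the 78, 51 encode proteins of the large subunit of the mitoribosome and 26 encode proteins of the small subunit. Mrps18a and Mrps30 belong to the large subunit despite their symbols. The last gene, Mrps36, carries a ribosomal name but encodes a subunit of the 2-oxoglutarate dehydrogenase complex.

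The mitoribosome is the ribosome inside mitochondria, where it translates the few proteins encoded by mitochondrial DNA, all of them parts of the respiratory chain and the ATP synthase. Its ribosomal RNAs are made in the mitochondrion, whereas every protein of the particle is encoded in the nucleus, made in the cytosol and imported. The genes are expressed in nearly all cells and many of their promoters are rich in CpG. H3K27ac is found at promoters and enhancers in use and H3K4me3 mainly at promoters in use, and both therefore report on the nuclear side of mitochondrial translation.

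Both marks were mapped by ChIP-seq in C57BL/6J mice, assigned at 12 to 14 weeks of age, that were controls or had been made diabetic with streptozotocin (42 to 45 mg/kg per day for 5 days, blood glucose above 13.9 mmol/L, tissue taken after 6 weeks). Bone marrow depleted of cells carrying CD3, CD4, B220, Ter119 or Gr1 is called HSCs here, as in the labels, although it holds progenitors of several lineages. BMDMs are bone marrow cells grown for 7 days in 5 mmol/L glucose with L929-conditioned medium, left unstimulated or given 100 ng/mL LPS with 10 ng/mL IFN-γ for 16 h. Each mark had 35 libraries with a peak list in 6 groups, each library from an individual animal, with 6 libraries per group except 5 for unstimulated BMDMs of diabetic mice. Cell type and the culture of BMDMs cannot be told apart.

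A promoter was the region within 1000 bp of any annotated start site of a gene on GRCm38. In each library the genes were ranked by the highest −log10 p of a peak over their promoter, and the rank was scaled to a percentile from 0 (no peak) to 100. A percentile of 50 is the middle of all protein-coding genes in that library, except in H3K4me3 library 6 of diabetic HSCs. There 40.8% of genes had a peak and the median of all genes was 0. A called difference is a difference in mean percentile with an adjusted p under 0.05 (limma, Benjamini-Hochberg over all genes tested).

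The 6 promoters below are shown because they carry the results. Mrpl24, Mrpl35, Mrpl1 and Mrpl45 are the members whose mean H3K27ac percentile was lowest, Mrpl3 was among the highest for both marks, and the stretch at Mrps11 is read in both directions. Each run is RefSeq sequence of GRCm38.p6, 5′ to 3′ on the strand of the gene, in lower case with any match to a searched motif in capitals.
Mrpl24, chr3:87919344-87919563, + strand: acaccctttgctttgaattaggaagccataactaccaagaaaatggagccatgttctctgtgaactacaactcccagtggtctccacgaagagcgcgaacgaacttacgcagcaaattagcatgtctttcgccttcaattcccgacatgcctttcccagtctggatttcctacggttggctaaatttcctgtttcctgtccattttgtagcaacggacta
Mrpl35, chr6:71823765-71823984, − strand: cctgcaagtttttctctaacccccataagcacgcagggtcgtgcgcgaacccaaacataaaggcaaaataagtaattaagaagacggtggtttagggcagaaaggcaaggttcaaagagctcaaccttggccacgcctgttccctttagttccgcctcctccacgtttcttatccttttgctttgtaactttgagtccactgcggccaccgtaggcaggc
Mrpl1, chr5:96209915-96210134, + strand: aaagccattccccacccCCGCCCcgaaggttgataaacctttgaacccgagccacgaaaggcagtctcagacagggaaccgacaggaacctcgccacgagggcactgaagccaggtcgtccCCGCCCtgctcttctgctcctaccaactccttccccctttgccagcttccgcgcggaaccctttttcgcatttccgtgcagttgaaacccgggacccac
Mrpl45, chr11:97315516-97315735, + strand: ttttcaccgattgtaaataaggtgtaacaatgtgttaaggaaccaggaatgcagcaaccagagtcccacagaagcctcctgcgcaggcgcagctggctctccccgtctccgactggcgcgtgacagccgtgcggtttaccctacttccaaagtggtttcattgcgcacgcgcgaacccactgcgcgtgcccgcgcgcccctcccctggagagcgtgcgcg
Mrpl3, chr9:105053068-105053287, + strand: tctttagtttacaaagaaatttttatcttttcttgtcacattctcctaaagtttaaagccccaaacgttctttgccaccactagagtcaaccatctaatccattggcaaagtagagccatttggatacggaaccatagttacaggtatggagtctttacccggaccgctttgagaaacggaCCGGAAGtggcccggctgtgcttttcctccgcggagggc
Mrps11, chr7:78783070-78783150, + strand: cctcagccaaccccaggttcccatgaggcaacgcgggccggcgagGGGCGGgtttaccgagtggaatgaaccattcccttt
The first 5 runs hold the 200 bases before the RefSeq start and the first 20 bases of the transcript. The capitals mark the letters of an SP site in Mrpl1 and Mrps11 and of an ETS site in Mrpl3. No searched motif was found in the printed stretches of Mrpl24, Mrpl35 and Mrpl45. The longer stretch of 300 bases searched below does hold YY1 letters for Mrpl35 and for Mrps11, outside the bases printed here. The runs of Mrpl24 and Mrpl3 hold 9 CpG each and that of Mrpl45 holds 21, so CpG number does not follow the order of the percentiles among these genes. The 81 bases at Mrps11 span the interval to Mrpl46, which starts 41 bases away on the opposite strand. These 2 members had identical values in all 70 lists and cannot be told apart by a promoter peak.

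Promoter sequence of 300 bases per start site (250 before and 50 after it) was available for 69 of the 78 members. A median of 21 CpG was found per member promoter (lowest 7, highest 43), against 15 over all 16522 genes with a sequence. At least 10 CpG were present in 97.1% of members and in 61.4% of genes, whereas the median GC content was close, 58.3% against 57.7%. Member promoters thus held more CpG at nearly the same base composition. Motifs were searched as exact letters on both strands. The ETS letters CCGGAAG, the core bound by GABP and its relatives, were found in 26 members (37.7%, against 13.4% of all genes). The letters of NRF1, GCGCATGCG, a factor known for nuclear genes of mitochondrial function, were found in 7 members (10.1%, against 2.74%). The letters of YY1, AAGATGGCG, were found in 8 members (11.6%, against 2.25%). The SP letters GGGCGG were found in 34 members (49.3%, against 51.0%). The reverse complement of the NRF1 letters overlaps the letters themselves, and the YY1 and ETS letters can share 3 bases. Members with and without ETS letters had median mean percentiles of 76.1 and 73.2 for H3K27ac and of 68.1 and 62.6 for H3K4me3, a description with no test. A match shows that the letters are present and not that a factor binds there.

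Many member promoters were shared with a neighbouring gene. A start site of another protein-coding gene lay on the opposite strand within 1000 bp in 33 members (42.3%, against 12.3% of all genes), and on either strand in 34 (43.6%, against 14.6%). Mrpl44 lay 27 bp from Wdfy1, Mrps18b 45 bp from Ppp1r10, Mrpl14 63 bp from Tmem63b, Mrpl30 66 bp from Mitd1 and Mrpl32 75 bp from Psma2. A peak over such a promoter belongs to both genes, and its share between them was not measured. The 34 members with a neighbour had a median mean H3K27ac percentile of 77.3 and the other 44 had 71.0. For H3K4me3 these medians were 71.4 and 62.9.

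Before the members are described, the libraries need a short account. Lists held 51162 to 176559 peaks for H3K27ac and 13730 to 277213 for H3K4me3. Markers followed the labels in H3K27ac: 7 of 10 stem and progenitor genes were called higher in HSCs than in unstimulated BMDMs and none lower, and 5 of 9 macrophage genes tested were lower and none higher. All 6 tested erythroid genes of a list of 8 were higher in HSCs as well, and the median percentile of that list was 41.3 to 62.9 in HSC libraries and 0 to 15.6 in unstimulated BMDM libraries, with Car1 at 0 in every library and Alas2 at 0 in every unstimulated BMDM library. Also higher in HSCs were 1 of 6 neutrophil, 1 of 6 B cell, 2 of 6 T cell and 1 of 5 megakaryocyte genes tested, with 1 megakaryocyte gene lower. The part of these other cells in any difference below was not tested. The defining macrophage gene Adgre1 had a promoter peak in 6 of 11 unstimulated BMDM libraries, and Csf1r in all 11. Other macrophage genes went the other way without being called: Lyz2 had a peak in 2 of 11 unstimulated BMDM and 5 of 12 HSC libraries, and Itgam in 3 and 7. Msr1 had a peak in no library of either state. After LPS+IFN-γ, 3 of 11 response genes rose in H3K27ac (Cxcl10, Ptgs2 and Socs1). Among H3K27ac libraries of stimulated BMDMs, control library 5 had the lowest percentile of Ptgs2 (68.8, others 76.5 to 94.3) and Socs1 (80.1). Among those of unstimulated BMDMs, control library 6 had the highest (87.6 and 98.6). Earlier results of these data placed these 2 libraries and unstimulated control library 5 against their labels, so calls are also given without them. For that library 5, Ptgs2 (61.7) was among the lower and Socs1 (90.3) among the higher values of unstimulated BMDMs. The choice comes from these same data, so calls without these libraries are a description. Among H3K4me3 libraries, library 6 of diabetic HSCs had the shortest list, 13730 peaks, with a peak at 40.8% of all genes.

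H3K27ac lay over nearly every mitoribosomal promoter in every state. In HSCs the share of members with a peak ran from 98.7% to 100% (mean 99.9%±0.37, SD, n=12). In unstimulated BMDMs it ran from 92.3% to 100% (97.1%±2.57, n=11), and in LPS+IFN-γ BMDMs from 96.2% to 100% (98.3%±1.38, n=12). Over all protein-coding genes the mean share was 67.6%, 67.4% and 66.1% in the same order. A peak was present in all 35 libraries at 71 of 78 members (91.0%), against 47.0% of all genes. The median member percentile was 74.6±1.91 in HSCs, 72.6±2.53 in unstimulated BMDMs and 73.2±1.3 in LPS+IFN-γ BMDMs, and the ranges of the 3 states overlapped.

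**Figure D1:**
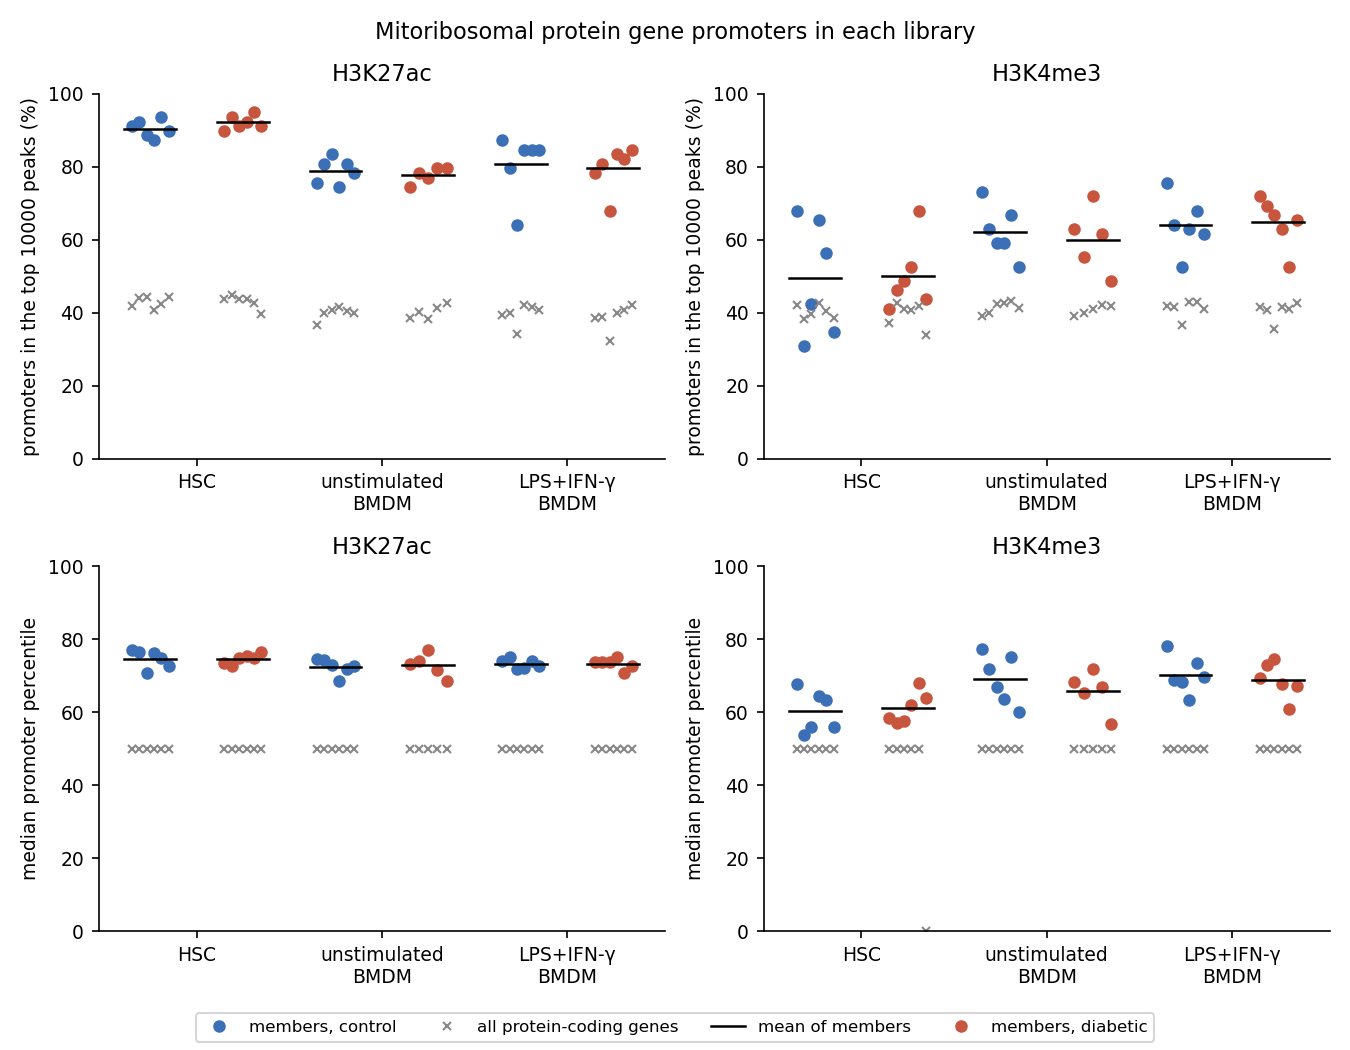
Each point is a library; the upper plots show the percentage of the 78 member promoters among the 10000 strongest peaks, and the lower plots the median promoter percentile, for HSCs, unstimulated BMDMs and LPS+IFN-γ BMDMs of control (blue) and diabetic (red) mice. Crosses give all protein-coding genes and bars the mean of the members; for H3K27ac in the upper plots, the HSC libraries (87.2% to 94.9%) all lie above the unstimulated BMDM libraries (74.4% to 83.3%).

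When each list was cut to its 10000 strongest peaks, which gives all libraries the same length, the states separated more. The share of members still holding an H3K27ac peak was 87.2% at the lowest, 91.0% at the median and 94.9% at the highest of the HSC libraries. In unstimulated BMDMs the values were 74.4%, 78.2% and 83.3%. In LPS+IFN-γ BMDMs they were 64.1%, 82.7% and 87.2%. HSC libraries therefore lay above all unstimulated BMDM libraries without overlap and touched the highest stimulated library. The means were 91.2%±2.24, 78.3%±2.84 and 80.1%±7.1, and those over all genes were 42.9%, 40.0% and 39.2%. The share was also higher in HSCs for related lists: 93.4%±2.55 against 82.4%±3.30 in unstimulated BMDMs for respiratory chain and ATP synthase genes, 94.3%±3.43 against 84.3%±4.25 for mitochondrial aminoacyl-tRNA synthetases, and 90.4%±1.40 against 85.9%±1.58 for cytosolic ribosomal protein genes. Assembly and rRNA modification genes had 85.9%±6.97 against 68.8%±6.09, and regulators of mitochondrial genes 86.8%±6.61 against 88.6%±4.20. No test was made on these shares, since each is a score over a list. Of the 78, 23 were among the top 10000 peaks of all 35 libraries (29.5%, against 19.7% of all genes), and Mrpl1 and Mrpl45 were in none.

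Within the set, mean H3K27ac percentiles over the 35 libraries ran from 28.1 to 93.7 with a median of 74.0, and 73 members lay above 50. The highest were Mrpl18 (93.7), a protein of the central protuberance, Mrpl48 (93.6), Mrpl3 (92.7), which lies near the peptidyl transferase centre, Mrpl54 (91.0) and Mrpl57 (89.7). The lowest were Mrpl24 (28.1±24.1), which lies near the exit tunnel, Mrpl35 (33.8±24.4), Mrpl45 (33.8±19.4), which sits at the tunnel exit and anchors the particle to the inner membrane, Mrpl1 (41.2±18.3) of the stalk that releases tRNA, and Mrpl30 (49.4±14.5). Mrpl35, Mrpl24 and Mrpl45 also had the largest SDs. These 5 were 5 of the 7 members that lacked a peak in at least 1 library: Mrpl24 had a peak in 21 of 35 libraries, Mrpl35 in 24, Mrpl45 in 27, Mrpl1 in 30 and Mrpl30 in 33, and Mrpl22 and Mrpl39 in 34 each. All 7 are large subunit genes. The median of the member means was 76.0 for the large and 71.0 for the small subunit, with wide overlap.

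Some members with other known roles sat in the upper part of the range for H3K27ac. Mrps30 had a mean of 83.3, Mrpl58, a peptidyl-tRNA hydrolase that became part of the large subunit, 81.6, and Mrps36 78.6. The 3 Mrps18 paralogs, which encode related proteins at different sites of the particle, had 79.1 (Mrps18a), 74.9 (Mrps18b) and 68.4 (Mrps18c). Mrps12, at the decoding centre, had 73.7 and Mrpl12, a stalk protein that also binds mitochondrial RNA polymerase, 73.2.

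H3K4me3 covered the members less evenly. The share of members with a peak was 60.3% to 98.7% in HSC libraries (92.9%±11, n=12), with 60.3% in library 6 of diabetic HSCs and 84.6% as the next lowest. The mean was 95.1%±2.42 in unstimulated and 95.8%±2.79 in LPS+IFN-γ BMDMs. Over all genes it was 65.2%, 72.6% and 72.4%. A peak in all 35 libraries was present at 40 of 78 members (51.3%, against 36.9% of all genes). Of the other 38, 32 lacked a peak in 1 to 5 libraries, 4 in 6 to 17, and Mrpl45 and Mrpl24 in at least 18, with a peak in 7 and 11 libraries.

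The median member percentile for H3K4me3 was 53.8 at the lowest and 67.9 at the highest of the HSC libraries (60.6±4.83). It ran from 56.8 to 77.3 in unstimulated BMDMs (67.6±6.16) and from 60.9 to 78.1 in LPS+IFN-γ BMDMs (69.5±4.77), so the states overlapped. Among the top 10000 peaks the share of members was 49.8%±12.5, 61.2%±7.52 and 64.4%±6.85, against 39.9%, 41.1% and 40.8% of all genes. HSCs thus had the lowest mean share for H3K4me3 and the highest for H3K27ac. The share of members with a peak moved with list length: its correlation with the log2 number of H3K4me3 peaks was 0.82 over 12 HSC libraries, 0.87 over 11 unstimulated and 0.92 over 12 stimulated libraries. For H3K27ac the values were 0.73, 0.64 and 0.42. This is a description with no test, since both values come from the same lists. H3K4me3 lists were shorter in HSCs (71420±39523 peaks) than in unstimulated BMDMs (131699±50942), whereas H3K27ac lists were alike (110459±29070 and 111612±42841).

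**Figure D2:**
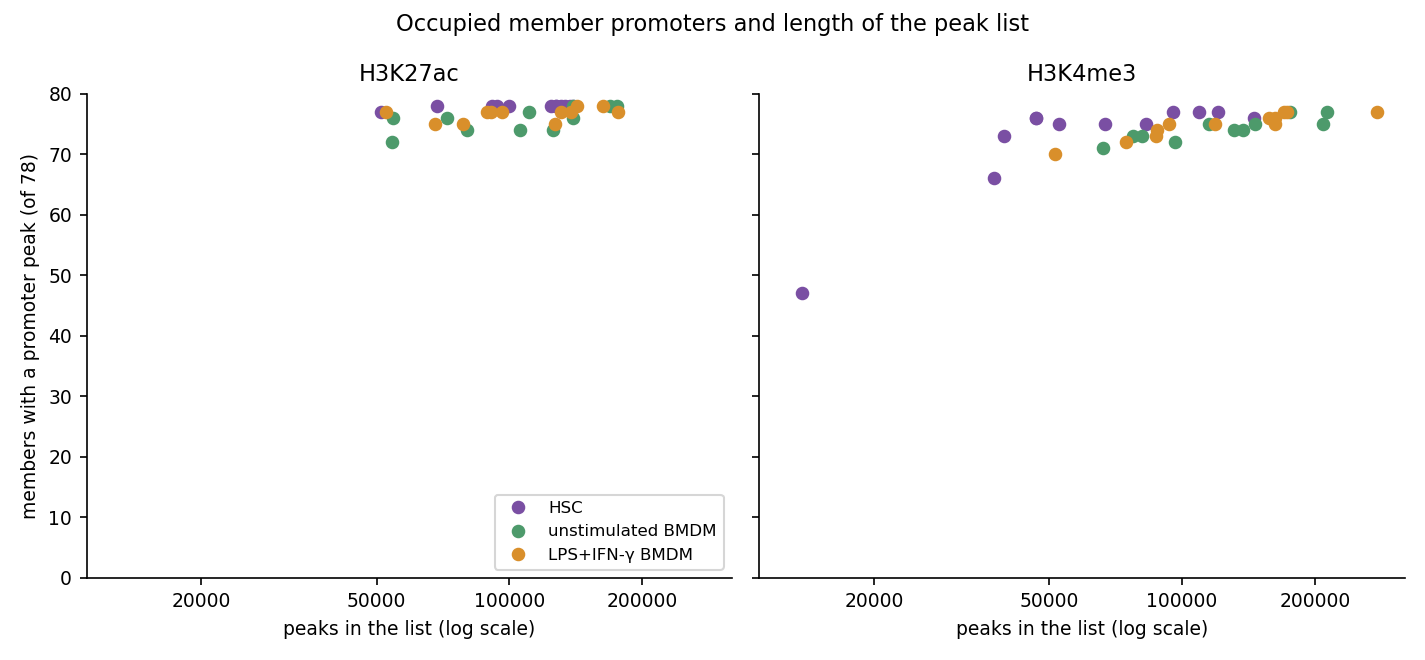
Number of the 78 members with a promoter peak against the number of peaks in the list (log scale), one point per library, coloured by cell state. H3K27ac libraries hold 72 to 78 members, whereas the shortest H3K4me3 list (13730 peaks) holds 47.

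Mean H3K4me3 percentiles ran from 6.75 to 92.5 with a median of 64.6, and 62 members lay above 50. Mrpl3 was highest (92.5), followed by Mrps24 (89.5), Mrps7 (86.8), Mrps34 (86.7) and Mrpl48 (86.6). Mrpl45 (6.75), Mrpl24 (12.5), Mrpl1 (19.7), Mrpl35 (24.8) and Mrps18b (29.8) were lowest. The largest SDs were those of Mrps2 (75.8±23.6), Mrps31 (60.2±23.2) and Mrpl11 (59.0±22.8). Mrps24, Mrps7, Mrpl48, Mrpl14 and Mrpl23 were among the top 10000 peaks of all 35 libraries (6.41% of members, against 3.81% of all genes). Mrpl35, Mrpl1 and Mrpl45 were in none. Mrps30 had a mean of 85.8, Mrpl12 82.9, Mrps18c 76.3, Mrps36 73.3, Mrps18a 64.3, Mrpl58 62.5 and Mrps12 47.8.

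Across the 78 members the mean percentiles of the marks correlated with a Pearson r of 0.76 and a Spearman rho of 0.62, against 0.90 for both over all genes. These are correlations across genes, which are not independent replicates, and the members span a narrower range than all genes. Mrpl24, Mrpl35, Mrpl45 and Mrpl1 were the 4 lowest in both marks. Mrps18b stood apart, at 74.9 for H3K27ac and 29.8 for H3K4me3, as did Mrpl54 at 91.0 and 46.2. In the other direction Mrps6 had 67.2 for H3K27ac and 85.7 for H3K4me3, Mrpl34 63.0 and 76.7, and Mrpl12 73.2 and 82.9.

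**Figure D3:**
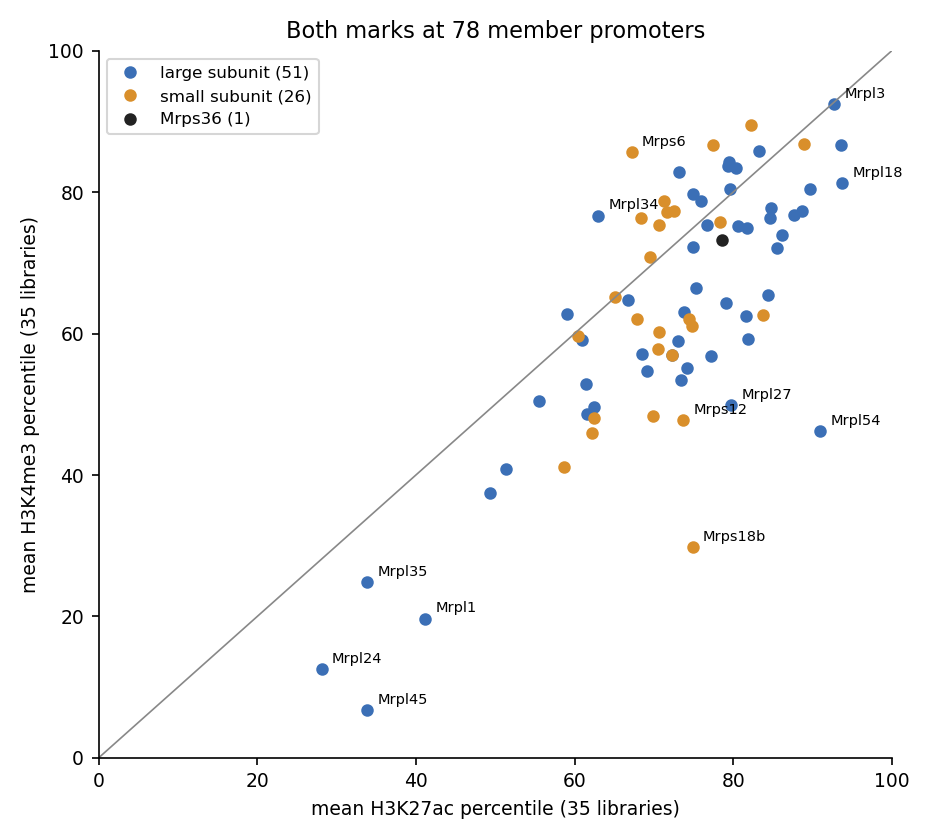
Mean H3K4me3 percentile against mean H3K27ac percentile of each of the 78 members over 35 libraries per mark, coloured by subunit, with the diagonal drawn. Mrpl24, Mrpl35, Mrpl1 and Mrpl45 lie at the lower left, and Mrps18b (74.9 and 29.8) and Mrpl54 (91.0 and 46.2) lie far below the diagonal.

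The strongest peak at a member promoter was somewhat narrower than at other occupied promoters. The median H3K27ac width was 963±66.2 bp in HSCs, 829±124 bp in unstimulated and 906±157 bp in LPS+IFN-γ BMDMs, against 1028, 907 and 988 bp over all genes. For H3K4me3 it was 585±132, 717±96.2 and 744±110 bp, against 732, 849 and 877 bp. The member median was the narrower one in all 35 libraries of each mark.

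Comparing HSCs with unstimulated BMDMs asks whether these promoters change rank between bone marrow progenitors and the macrophages grown from marrow. In H3K27ac, 13 of 78 members were called higher in HSCs (16.7%, against 14.6% of all genes tested) and 4 lower (5.13%, against 14.0%). The share higher was near that of all genes and the share lower was below it. The median difference was 2.64 percentile points, against 0.43 over all genes, and 54 members had a difference above 0. A lower percentile may stem from fewer marked cells or from less mark per cell, which bulk chromatin cannot tell apart.

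The 4 largest differences belonged to members at or near the bottom of the set, and for Mrpl24, Mrpl35 and Mrpl1 several BMDM libraries held no peak at all. Mrpl24 had a peak in all 12 HSC libraries (percentile 30.2 at the lowest, 49.7 at the median and 60.2 at the highest). It had one in 3 of 11 unstimulated BMDM libraries (0, 0 and 47.3). HSC libraries were thus high and most BMDM libraries were at 0, with overlap in the pooled groups. The difference was 38.54±7.41 points (SE, adjusted p=0.000127, limma). Even the weakest peak ranks above all genes without one, so much of this size is presence against absence of a peak. The average rank for genes without a peak, a choice made after seeing the data, gave smaller differences. They were 26.22 for Mrpl24, 22.84 for Mrpl35 and 18.78 for Mrpl1, all still called. Mrpl24 lies on chromosome 3 (87919506 to 87923672, + strand), and no other protein-coding gene starts within 1000 bp of it. In diabetic mice its HSC libraries (30.2 to 60.2) lay above all unstimulated BMDM libraries (0 to 29.8), and the fit gave 40.97±10.72 (adjusted p=0.00765, limma). In control mice it gave 36.10±10.22 (adjusted p=0.0144, limma).

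Mrpl35 showed the same form. Its percentile in HSC libraries was 44.4, 49.6 and 67.2 (lowest, median and highest), with a peak in all 12. In unstimulated BMDMs it was 0, 0 and 63.0, with a peak in 4 of 11. Most BMDM libraries were at 0 and the highest of them reached into the HSC range, with a difference of 33.71±8.24 (adjusted p=0.00195, limma). Mrpl1 had 44.2, 54.0 and 57.1 in HSCs, and 0, 38.0 and 58.5 in unstimulated BMDMs, where 7 of 11 libraries had a peak. The groups overlapped and the difference was 25.05±6.38 (adjusted p=0.0028, limma). Mrpl30 had 50.3, 59.1 and 68.1 in HSCs and 0, 43.8 and 56.2 in BMDMs, with a peak in 10 of 11, and differed by 16.95±4.98 (adjusted p=0.0092, limma). Its promoter is shared with Mitd1. Mrpl45, which was as low as Mrpl35 over all libraries, had 0, 42.9 and 51.5 in HSCs and 0, 43.0 and 48.7 in BMDMs, and its difference of 11.45 was not called (adjusted p=0.281, limma).

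**Figure D4:**
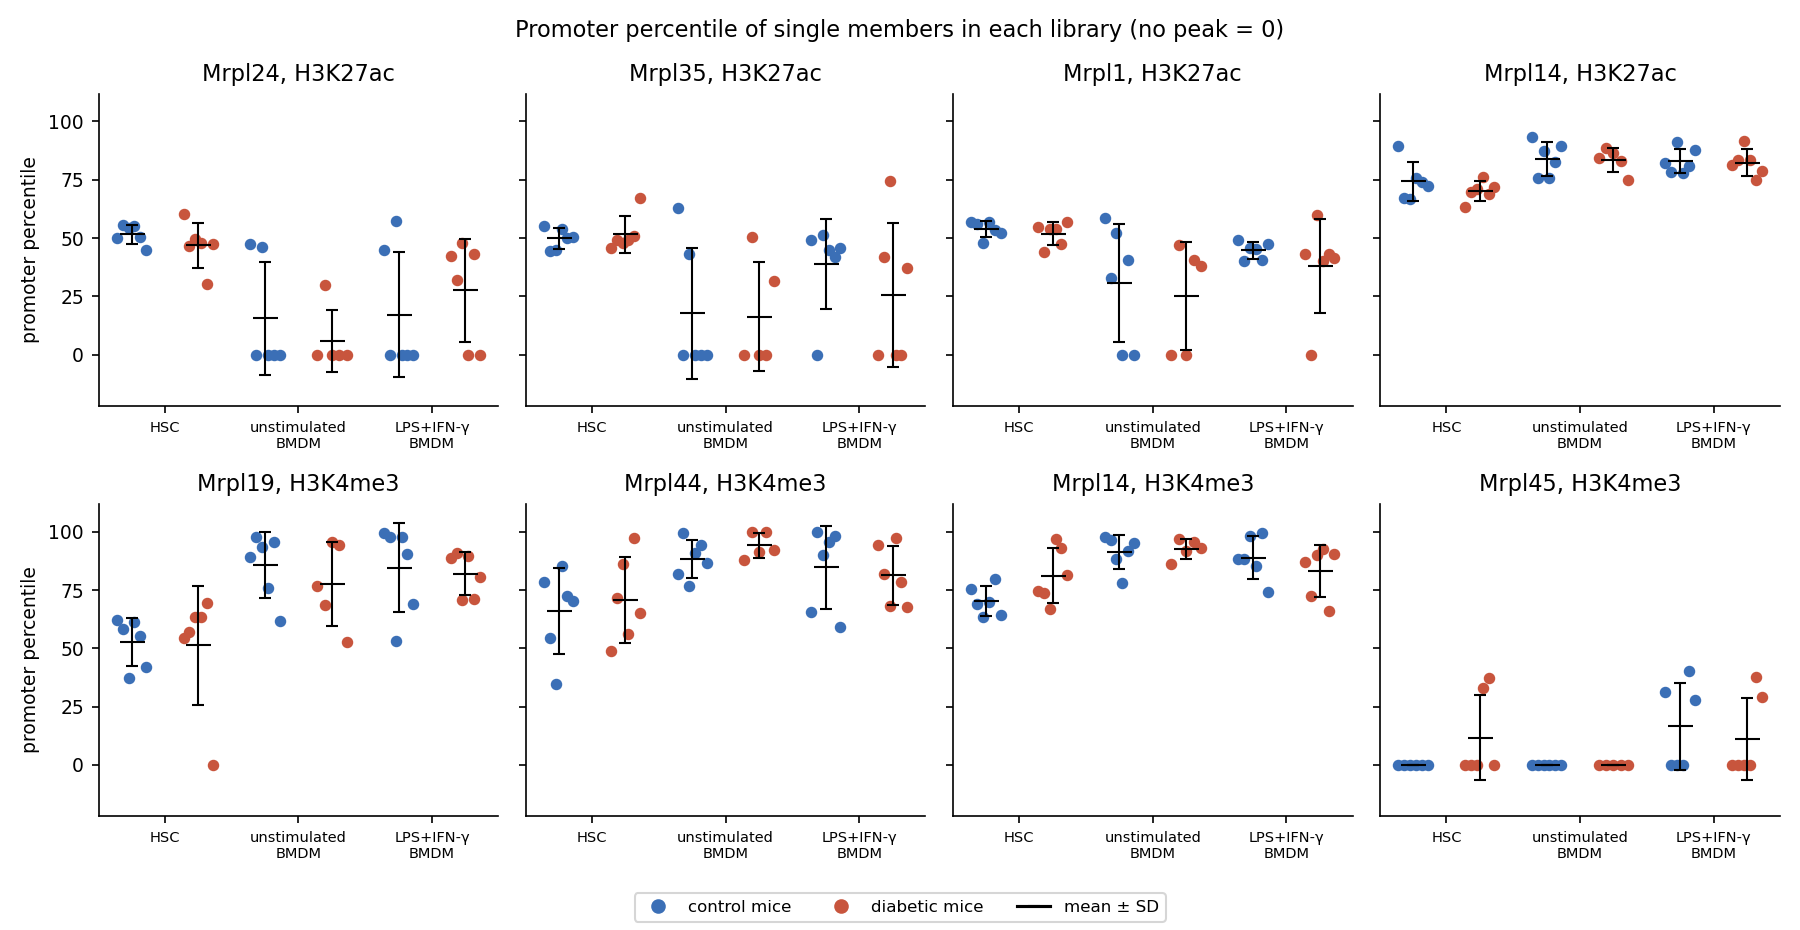
Promoter percentile of 8 member and mark pairs in every library of HSCs, unstimulated BMDMs and LPS+IFN-γ BMDMs, in control (blue) and diabetic (red) mice; a library without a peak is at 0, and bars give mean ± SD. Mrpl24 has an H3K27ac peak in all 12 HSC libraries and in 3 of 11 unstimulated BMDM libraries, and Mrpl14 is lower in HSCs for both marks.

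The other members higher in HSCs had a peak in every library and moved within the upper part of the ranking. Mrps18b had 71.1, 85.5 and 96.1 in HSCs and 53.9, 65 and 90.7 in unstimulated BMDMs. The groups overlapped, with a difference of 16.79±4.09 (adjusted p=0.00186, limma), and the promoter is shared with Ppp1r10. Mrpl41 had 68.5, 78.3 and 96.3 in HSCs and 58.4, 67.3 and 79.1 in BMDMs, a difference of 13.75±3.58 (adjusted p=0.00345, limma). Mrps23 had 65.6, 74.5 and 87.5 in HSCs and 52.5, 61.1 and 80.3 in BMDMs. In diabetic mice Mrps23 did not overlap (67.2 to 87.5 against 56.4 to 61.1), and it differed by 12.49±3.32 over both disease states (adjusted p=0.0041, limma). The remaining 6 were Mrpl51, Mrpl16, Mrps17, Mrps5, Mrpl28 and Mrpl2, with differences of 7.17 to 12.55.

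Members lower in HSCs were Mrpl14, Mrps33, Mrps2 and Mrps18c. Mrpl14, at the interface of the subunits, had 63.4, 71.6 and 89.5 in HSCs and 74.8, 84.4 and 93.2 in unstimulated BMDMs. Most HSC libraries were below the BMDM libraries, with overlap, and the difference was −11.49±2.58 (adjusted p=0.000847, limma). Mrps33 had 55.0, 69.1 and 75.2 in HSCs and 59.8, 76.4 and 88.4 in BMDMs (−9.23±2.88, adjusted p=0.0142, limma). Mrps2 had 51.3, 72.7 and 82.2 against 70.3, 78.1 and 90.0 (−8.0±2.83, adjusted p=0.0309, limma), and Mrps18c differed by −7.69±2.95 (adjusted p=0.0469, limma). Ranked by fold enrichment, Mrpl14 stayed called (−13.68), whereas Mrps33 (adjusted p=0.301, limma), Mrps2 (−4.05, adjusted p=0.544) and Mrps18c (adjusted p=0.0834) did not. Mrps2 was not called by exact permutation either (adjusted p=0.0849).

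Of the 13 members higher in HSCs, 6 share their promoter with a neighbour (Mrpl2, Mrps5, Mrpl51, Mrpl41, Mrps18b and Mrpl30), as do Mrpl14 and Mrps18c among the 4 lower. Over all members 34 of 78 do.

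Fewer members were called within a disease state. In control mice 3 members were higher (background 6.18% of genes) and 1 lower (6.76%): Mrpl24, Mrps18b (17.41±5.64, adjusted p=0.0346, limma) and Mrpl51 (17.39±5.40, adjusted p=0.0272), and Mrps2 (−14.28±3.91, adjusted p=0.0114). In diabetic mice 5 were higher (6.12%) and 1 lower (7.83%): Mrpl24, Mrpl35, Mrpl30, Mrpl1 and Mrps23, and Mrpl14 (−13.19±3.74, adjusted p=0.0142, limma). Mrpl24 was called in both. The difference between disease states in this contrast was called for no member, as given below.

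**Figure D5:**
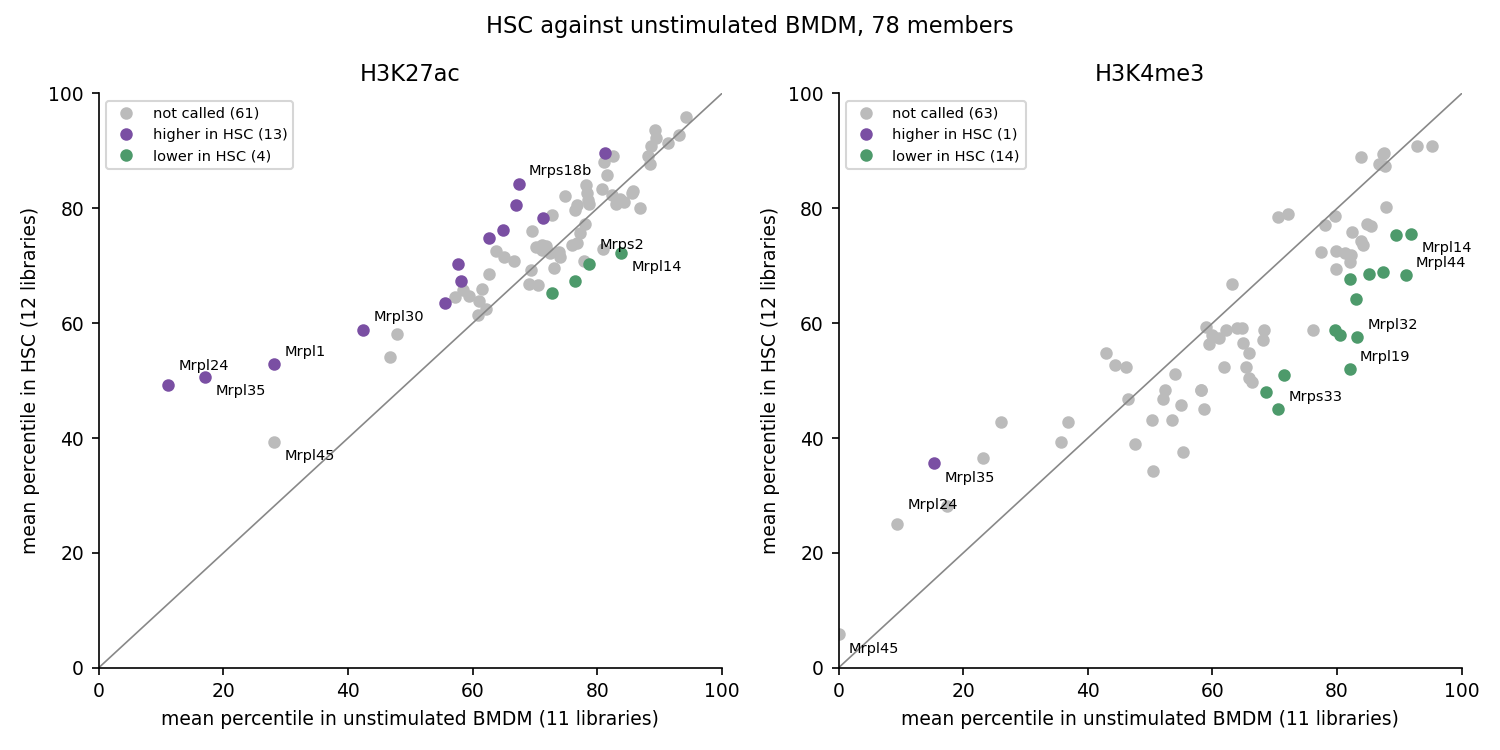
Mean promoter percentile in HSCs (12 libraries) against that in unstimulated BMDMs (11 libraries) for each of the 78 members, with called members coloured and the diagonal drawn. For H3K27ac 13 members are called higher in HSCs and 4 lower; for H3K4me3 1 is called higher and 14 lower.

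For H3K4me3 the balance was the other way. A single member, Mrpl35, was called higher in HSCs (1.28%, against 5.27% of all genes tested), and 14 were lower (17.9%, against 12.3%). The median difference was −7.45 points, against −3.06 over all genes, and 59 members had a difference below 0. The calls depended on the ranking column and on list length: ranked by fold enrichment in place of −log10 p, 1 member was higher and none lower (1.76% and 6.05% of all genes), and with the log2 number of peaks as a covariate 1 was higher and 1 lower (1.09% and 1.08%). By exact permutation 10 members were called, all lower. These calls are therefore values of a ranking in which list length and cell state move together.

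Mrpl19, a large subunit protein, had H3K4me3 percentiles of 0, 57.6 and 69.3 in HSCs, where the 0 is library 6 of diabetic mice, and 52.9, 89.2 and 97.9 in unstimulated BMDMs. Most HSC libraries were below most BMDM libraries, and the difference was −29.63±6.62 (adjusted p=0.00218, limma). Mrpl32, whose product is processed by a protease of the inner membrane before it joins the particle, had 0, 58.0 and 78.8 against 56.1, 86.3 and 98.4 (−25.23±6.49, adjusted p=0.00649, limma). Mrpl44, which has a fold related to RNase III, had 34.5, 71.0 and 97.4 against 76.9, 91.1 and 99.8. The groups overlapped for each of these genes, and Mrpl44 differed by −22.88±5.68 (adjusted p=0.00511, limma). The promoters of Mrpl32 and Mrpl44 are shared with Psma2 and Wdfy1.

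Mrps33 had a peak in 9 of 12 HSC libraries (0, 56.6 and 82.9) and 49.0, 62.1 and 98.3 in BMDMs (−25.86±8.0, adjusted p=0.0213, limma). Mrps36 had 0, 63.5 and 76.5 against 55.7, 87.1 and 98 (−22.04±6.69, adjusted p=0.0194, limma). Mrpl17 had 0, 54.7 and 75.2 against 58.0, 69.9 and 96.7 (−21.08±6.52, adjusted p=0.0212, limma). The HSC median was the lower one in each of these members, and the groups overlapped. The remaining 8 lower members were Mrps9, Mrps2, Mrpl37, Mrpl34, Mrpl14, Mrps22, Mrpl36 and Mrpl12, with differences of −20.96 to −13.72. Mrpl12 had 59.8, 74.1 and 91.4 in HSCs and 65.4, 92.9 and 97.7 in BMDMs.

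Mrpl35, the member called higher, had a peak in 9 of 12 HSC libraries (0, 46.0 and 59.9) and in 5 of 11 unstimulated BMDM libraries (0, 0 and 46.2), a difference of 21.64±7.47 (adjusted p=0.0376, limma). All 5 of these BMDM libraries with a peak were from control mice and none from diabetic mice. By exact permutation the adjusted p was 0.104. With the log2 number of peaks as a covariate it was also 0.104 (limma), so the member called higher under that covariate was another. Mrpl24 had an H3K4me3 peak in 7 of 12 HSC, 3 of 11 unstimulated and 1 of 12 LPS+IFN-γ libraries. Mrpl45 had one in 2, 0 and 5 libraries of the same states. In control mice alone none was higher (background 1.32%) and Mrpl19, Mrpl14 and Mrps22 were lower (4.26%). In diabetic mice none was called in either direction (0.117% and 0.526%), and 13 members had an unadjusted p under 0.05 (limma). Within either disease state exact permutation called no gene at all, member or other.

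Of the 28 members called in either mark, 4 were called in both, each in the same direction: Mrpl35 higher in HSCs, and Mrpl14, Mrps2 and Mrps33 lower. They are 23.5% of the 17 called in H3K27ac and 26.7% of the 15 called in H3K4me3. Over all genes the shares were 18.9% and 30.2%, with 80.6% in the same direction, so the overlap of the members was near that of all genes. Ranked by fold enrichment, Mrpl35 alone stayed called in both marks, since the H3K4me3 differences of Mrpl14 (adjusted p=0.0733, limma), Mrps2 (0.611) and Mrps33 (0.318) were no longer called. By exact permutation Mrpl14 alone was called in both. With the log2 number of peaks as a covariate, none of the 4 was called in H3K4me3. The adjusted p was 0.092 for Mrpl14, 0.104 for Mrpl35, 0.631 for Mrps2 and 0.387 for Mrps33 (limma). Mrpl14 had H3K4me3 percentiles of 63.4, 74.0 and 97.0 in HSCs and 77.9, 93.1 and 97.9 in unstimulated BMDMs (−16.30±4.13, adjusted p=0.00587, limma), and Mrps2 0, 66.0 and 90.0 against 57.4, 83.1 and 97.6. The HSC median was the lower one for both genes.

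LPS+IFN-γ drives macrophages from oxidative phosphorylation towards glycolysis, so the second comparison asks whether the promoters of the mitoribosome follow. No member was called in H3K27ac by limma (background 0.844% higher and 1.11% lower) or by exact permutation. Permutation called only 6 of all genes tested, against 328 by limma. An unadjusted p under 0.05 was found for 10 members by limma (12.8%, against 16.6% of all genes) and for 5 by permutation. The median difference was 0.65 points with a median SE of 3.05, and 45 members had a difference above 0. Mrps33 had the lowest adjusted p (0.127, limma): it had 59.8, 76.4 and 88.4 in unstimulated and 61.9, 67.7 and 75.5 in LPS+IFN-γ BMDMs, a difference of −8.30±2.88. Without control libraries LPS+IFN-γ 5 and unstimulated 5 and 6, calls over all genes rose to 2.31% higher and 3.24% lower, and 2 members were among them, a share no larger than that of all genes. Mrps33 (−10.02±3.10, adjusted p=0.0489, limma) and Mrps34 (−9.38±2.46, adjusted p=0.019) were called lower. The libraries left out were picked from these same data, so these calls are a description only. With all libraries Mrps34 had −5.64 (adjusted p=0.292, limma). Both encode small subunit proteins.

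The largest HSC differences were read in the stimulated libraries too. Mrpl24 had an H3K27ac peak in 6 of 12 LPS+IFN-γ libraries (0, 16.0 and 57.4), Mrpl35 in 8 (0, 41.8 and 74.5) and Mrpl1 in 11 (0, 43.2 and 60.1), whereas Mrpl45 had one in 9 (0, 41.8 and 54.4) and Mrpl22 in all 12 (40.8, 60.3 and 77.7). None of these differences from unstimulated BMDMs was called. Split by disease, no member was called in control mice (background 0% in both directions) or in diabetic mice (0.773% and 1.11%). An unadjusted p under 0.05 (limma) was found for 2.56% and 16.7% of members, near or below the 4.78% and 17.6% of all genes, and for 1 and 8 members by permutation. In H3K4me3 no member was called (background 0% in both directions), 3 had an unadjusted p under 0.05 by limma and 4 by permutation, and the median difference was 0.27 points with a median SE of 6.2.

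The disease comparison asks whether diabetes altered these promoters in HSCs or in BMDMs grown in 5 mmol/L glucose. No member was called by limma or by exact permutation in any of the 6 comparisons. The background was 0% in either direction, except 0.00594% lower for H3K27ac in HSCs, which is 1 gene. At an unadjusted p under 0.05 limma gave 1, 4 and 3 members for H3K27ac in HSCs, unstimulated and LPS+IFN-γ BMDMs and 4, 3 and 2 for H3K4me3. Permutation gave 3, 5 and 1, and 1, 5 and 1. Median differences of the members ran from −1.69 to −0.10 points, with median SEs of 4.21 to 8.98, so that shifts of several points in a single gene were not detectable.

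The members at the low end of these p-values were as follows. Mrpl3 had H3K27ac percentiles of 72.9, 73.7, 81.7, 97.2 and 97.7 in unstimulated BMDMs of diabetic mice and 90.5 to 99.6 (median 98.3) in controls, with a difference of −12.46±3.75 (adjusted p=0.789, limma). Mrpl2 had H3K4me3 percentiles of 0, 48.5 and 79.1 in diabetic and 49.0, 65.5 and 80.3 in control HSCs (−28.86±9.42, adjusted p=0.811, limma). Mrpl35 had an H3K4me3 peak in 5 of 6 control and 0 of 5 diabetic unstimulated BMDM libraries, a difference of −28.00 points that was not called (adjusted p=1, limma). Library 6 of diabetic HSCs, with the shortest list, is among those at 0 for Mrpl2. The groups overlapped for each of these genes.

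No member was called for a difference of the disease effect between HSCs and unstimulated BMDMs, or of the stimulation effect between diabetic and control mice, in either mark (background 0% throughout). At an unadjusted p under 0.05 limma gave 3 and 6 members for H3K27ac and 2 and 4 for H3K4me3, and permutation gave 2, 5, 3 and 4. The median SEs of these interactions were 6.09 and 12.41 points.

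Other genes of mitochondrial translation were read from lists that had been set with earlier results known. In H3K27ac, cytosolic ribosomal protein genes ranked higher than the mitochondrial ones, with a median percentile of 85.8 in HSCs and 84.5 in unstimulated BMDMs, and respiratory chain and ATP synthase genes lay between them (80.8 and 78.1). Between HSCs and unstimulated BMDMs, 10 of 84 cytosolic ribosomal protein genes tested were higher and 1 lower, with a median difference of 1.40 points. Of 78 respiratory chain and ATP synthase genes 9 were higher and 1 lower (median 2.56, against 2.64 for the mitoribosomal genes). Over all genes tested 14.6% were higher and 14.0% lower. No test between lists was made. The named cytosolic genes were Rpl41 (31.48), Rpl10 (31.45), Rpl36a (28.23) and Rpl3 (−18.03). The named respiratory genes were Cox7b (22.52), Ndufb4 (12.62), Cox6a1 (11.87) and Atp5o (−20.60).

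For genes that act with the mitoribosome the counts below stand beside 14.6% higher and 14.0% lower over all genes, and with lists this short they are a description. Of 23 assembly and rRNA modification genes tested in H3K27ac, 5 were higher and 3 lower in HSCs (median 2.29), among them Fastkd2 (22.63), which binds the large ribosomal RNA, Mettl15 (12.67), an rRNA methyltransferase, and Rmnd1 (12.39), and Ddx28 (−13.27), an assembly helicase, Rcc1l (−11.34) and Mettl17. Of 17 genes of mitochondrial DNA maintenance and transcription 4 were higher and 2 lower (median 3.89), with Mterf2 at 42.94 and Polg, the DNA polymerase, at 8.73, and Ssbp1, the single-strand binding protein, at −7.75. Of 14 translation factors 1 was higher, the release factor Mtrf1 (46.77), and none lower. Of 22 aminoacyl-tRNA synthetases 1 was higher (Nars2, 9.46) and 1 lower (Iars2, −6.19). Of 5 mitoribosomal proteins outside the naming rule, Ptcd3 (15.32), a small subunit protein, was higher. Of 11 regulators Creb1 was higher (7.42) and the coactivators Ppargc1b (−13.31) and Pprc1 were lower.

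In H3K4me3, 5.27% of all genes tested were higher in HSCs and 12.3% lower, and list length and cell state move together as for the members. The same lists had 3 higher and 6 lower of 84 cytosolic ribosomal protein genes (median −4.82) and 1 higher and 6 lower of 77 respiratory genes (−6.62). The higher respiratory gene, Ndufa7, had the same values as the cytosolic gene Rps28 (19.83), so they are not separate observations. Assembly genes had none in either direction of 23 (limma). Translation factors had 2 lower of 13 (Mtif3 and Gfm1), synthetases 1 in each direction, and the proteins outside the rule 1 lower of 5 (Aurkaip1). Of the regulators, 3 of 12 were higher and none lower: Sp1 (28.11), Yy1 (17.24) and Gabpb1 (13.90), the last a subunit of GABP. Polg was higher (19.06) and Tefm, a mitochondrial elongation factor of transcription, was lower (−33.09). Differences in the lists were negative in median for all but the regulators, as they were over all genes.

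After LPS+IFN-γ, H3K27ac calls in these lists were few: Rpl13a and Rpl10a (1 in each direction of 84), Ndufb4 (12.58) of 78, Cars2 (−12.51) of 22 synthetases, Rcc1l (−13.21) of 23 assembly genes and Mgme1 (7.73) of 17 maintenance genes. No translation factor and no regulator was called. Over all genes tested 0.844% were higher and 1.11% lower. In H3K4me3 none of these genes was called, as was no gene among all those tested.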

How the data were processed

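ChIP-seq peak lists of 70 libraries (35 per mark) were used, and the 36 input samples, which have no list of their own, were left out. Per the submitters' processing notes, tools were Trim Galore 0.3.3, cutadapt 1.8, FastQC 0.11.3, Bowtie2 2.2.6, Picard 2.18.14 and 2.19.2, bedtools 2.19.1 and MACS2 2.2.7.1, with GRCm38 (mm10). In the lists deposited by the authors, called per library against input, each peak carries a −log10 p, a −log10 q (lowest 1.301), a fold enrichment over the local background and a summit position. Read totals are not in the lists, so depth and counting error are unknown, and a missing peak may mean a shallow library.

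Groups followed the labels. Start sites (93513, of 21938 protein-coding genes on 21 chromosomes) came from GENCODE M21. Percentiles were fitted with limma 3.58.1 (R 4.3.3, trend) over the 35 libraries of a mark in 6 groups, on genes with a peak in at least 6 libraries (16825 for H3K27ac, 17105 for H3K4me3), after a test on simulated data. HSC and stimulation contrasts average control and diabetic mice. Exact two-sided permutation used 924 (6 against 6) or 462 (5 against 6) arrangements, and 426888 over both disease states. Named are the 6 largest called differences per direction and comparison, the 5 highest and lowest means and 3 largest SDs per mark, members lacking peaks, Mrpl12, Mrps12, Mrpl45, Mrpl58, Mrps36, Mrps30 and the Mrps18 genes, and up to 3 called genes per other list and comparison. Further members named (the remaining called ones, Mrps34, Mrps6, Mrpl34, and Mrpl2 and Mrpl3 in the disease comparison) were picked after their values were seen. The members and lists were chosen with earlier results of these data known. Of the list symbols, 3 translation factors and 1 assembly gene were not matched. Alternatives changed the window (500 or 2000 bp), the ranking column, the peak assignment, the list length, the scale, the filter, the test and the libraries. Replicates are animals.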

Additional observations from a re-analysis of the deposited data

Results flagged for a closer look

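In groups of 5 or 6 libraries, the highest or lowest value was checked for a gap to its neighbour that made up most of the spread of the group (Dixon's test). Of 120 groups tested 10 had such a library. Chance gives about 1 in 20 for continuous values, but several groups here were tied at 100% or at 0. A lone differing library in a tied group is always flagged, so the 2 rates cannot be compared. Library 6 of diabetic HSCs was flagged in both marks. In H3K27ac it had a peak at 77 members (98.7%) where the others had 78 (100%), with Mrpl35 at 67.2. In H3K4me3, where its list was the shortest, it had 60.3% of members, with Mrpl19 at 0. H3K4me3 library 2 of control HSCs had a peak at 84.6% of members, and H3K27ac library 4 of diabetic LPS+IFN-γ BMDMs at 96.2%.

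The other libraries stood apart in single H3K27ac percentiles of members at the low end of the ranking. Mrpl24 was at 29.8 in library 2 of diabetic unstimulated BMDMs and at 0 in the other 4. Mrpl35 was at 0 in library 2 and Mrpl30 at 0 in library 3 of control LPS+IFN-γ BMDMs, and Mrpl1 was at 0 in library 2 of diabetic LPS+IFN-γ BMDMs.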

How the results depend on the processing

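Over 36 results and 410 alternative values, 388 stayed within limits set around the reported value, as did 960 of 980 values with 1 library left out. The limits were a modest change in a count of calls, or the SD of the libraries for a mean. Most counts of calls were 0 (all those of stimulation, disease and their interactions), and a count that stays at 0 lies within the limits. A mean moves little when 1 library is left out. These numbers are therefore a description and say little of the counts above 0, which are given below. The direction was read for single called members, and no difference of these reversed. In H3K27ac, 9 of the 17 called members were called under every alternative that could be computed for them (Mrpl1, Mrpl14, Mrpl24, Mrpl30, Mrpl35, Mrpl41, Mrps18b, Mrps23 and Mrps5), and 12 without each library in turn. In H3K4me3, none of 15 was called under every alternative and 5 without each library in turn. The 4 H3K27ac members lower in HSCs became 1 when ranked by fold enrichment, 1 in the top 10000 peaks and 2 without control LPS+IFN-γ 5 and unstimulated 5 and 6, which also gave 2 members lower after LPS+IFN-γ in place of 0 (over all genes 3.24% lower in place of 1.11%). With 1 library left out they were 2 to 5 (2 without unstimulated control 6, control HSC 4 or diabetic HSC 6).

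The 1 H3K4me3 member higher in HSCs became 0 with the annotated gene start alone, the top 10000 peaks, exact permutation, no filter, without the 3 control libraries or without the 4 libraries of unclear scaling. It became 3 with normal scores, 2 with only the groups compared and 4 with the average rank for genes without a peak, a choice made after seeing the data, and 0 to 1 with 1 library left out. The 14 lower members became 0 when ranked by fold enrichment, 6 in the top 10000, 8 with no filter, 1 with the log2 peak number as a covariate and 7 without the 3 control libraries. With 1 library left out they were 8 to 18, and under 10 without unstimulated control 2, unstimulated diabetic 2 or 4, control HSC 2 or 6, or diabetic HSC 1. The cause was not tested.

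With the annotated gene start alone, 98.4% of members had an H3K27ac peak in HSCs. Ranked by fold enrichment, the median member percentile was 71.5 for H3K27ac in LPS+IFN-γ BMDMs, and 59 and 59.3 for H3K4me3 in unstimulated and LPS+IFN-γ BMDMs. With the replicate number as a block, 12 members were higher and 4 lower for H3K27ac and 1 and 13 for H3K4me3, and no other count of calls moved. The labels do not say that a number marks a shared animal, and between 1 and 6 pairs of 11 or 17 per mark and kind of pair correlated above 0.1, with 1 to 5 libraries closest to their own number. A missing peak may reflect depth, which is not in the lists.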
